A study of Rattus norvegicus with 2 samples.

Results

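Regions of 5 to 10 kb carrying H3K27me3, trimethylated lysine 27 of the histone H3 tail, were examined in rat sciatic nerve. They were chosen by width from 1 deposited list, as autosomal regions over 5 kb and up to 10 kb. Regions lying wholly inside chromosome 3 from 67900000 to 68400000, chromosome 7 from 142000000 to 142600000 or chromosome 10 from 83700000 to 84500000 were left out, which removed 16. This gave 463 regions of the 90174 listed, or 0.513%. They held 719556 ChIP tags, 12.3% of the tags in the list, and covered 3157 kb in all. The question was whether such regions differ when they lie beside a wide region, here one of over 10 kb, from those that lie away from any.

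The tissue was freshly dissected sciatic nerve of male Sprague Dawley rats, whose age the labels do not give. It was fixed in 1% formaldehyde, and the antibody was H3K27me3 from Active Motif. The 2 ChIP libraries form 1 group with no treatment named in the sample labels, although the word Sham stands in the directory names that the list's header records. The list was called on 1 combined ChIP tag set of 46.8 M tags against 1 combined input, for which 41.2 M tags follow from the scaled columns. Whether that set holds exactly these 2 libraries is not stated. The list gives no value per library, so no spread between animals and no test between samples could be given. Intervals are 95% counting intervals, and other spreads are over regions or autosomes.

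H3K27me3 is placed by Polycomb repressive complex 2, whose catalytic subunit is EZH2 or EZH1 and whose EED subunit binds the mark already present, so that the mark can extend from a marked nucleosome to its neighbours. It is known for silencing developmental regulators, often over broad stretches. In Schwann cells, the glia of the sciatic nerve, Polycomb silencing is known to hold down genes that become active after nerve injury. The nerve also holds fibroblasts, perineurial, endothelial and immune cells. In such whole tissue, a mark in more of the cells and more of the mark per cell cannot be told apart. The sources used here give no genome build for the list, so positions are printed as listed and the genes under them were not analysed here.

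Regions of 5 to 10 kb lay beside wide regions more often than narrower regions did. Within 50 kb of a wide region, measured between edges, lay 92 of the 463, called near here, or 19.9% (16.3% to 23.8%, exact binomial interval). Among all autosomal regions up to 10 kb outside the 3 loci the share was 5.09%. It was 4.87% for regions up to 2 kb and 11.8% for regions over 2 kb and up to 5 kb (10.4% to 13.4%). Of the 203 wide regions outside the 3 loci, 24.1% had another wide region this close. The share thus went up with each width class, and the interval of the regions of 5 to 10 kb overlapped with that of the wide ones (18.4% to 30.6%). These intervals take regions as independent draws, which neighbours are not. The 92 near regions clustered around 74 different nearest wide regions, and 13 of them had 2 or more wide regions within 50 kb. Of the 214 wide regions on autosomes, 11 lay inside the 3 loci, where regions of 5 to 10 kb were left out. Of the other 203, 84 had at least 1 region of 5 to 10 kb within 50 kb. The median gap to a wide region was 4.16 kb for the near regions (quartiles 0.457 and 15.4 kb) and 3503 kb for the other 371, called far (quartiles 992.8 and 8697 kb).

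The ChIP signal of near regions was moderately higher than that of far regions, and their input differed little. ChIP density is given as tags per kb after the authors' scaling to 10000000 tags in all, where 1 ChIP tag is worth 0.214. Near regions had 28.8 normalized tags per kb at the lowest, 49.7 at the median and 143.9 at the highest, with quartiles of 40.8 and 62.7. Far regions had 27.7, 43.9 and 246.9, with quartiles of 36.8 and 51.6. The medians differed by 5.79 tags per kb, less than the distance between the quartiles of either group, and the groups overlapped over almost their whole ranges. Of the 92 near regions 58 lay above the far median, 40 above the far upper quartile and 16 below the far lower quartile. In summed tags the near density was 54.1 and the far density 47.2, a ratio of 1.15 (1.14 to 1.15, counting error only).

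Input density, the tags of the input library per kb, had a median of 14.40 in near and 14.39 in far regions. Exactly 46 of the 92 near regions lay above the far median. Summed input gave 15.14 against 14.98 tags per kb, a ratio of 1.01 whose interval of 0.988 to 1.03 includes 1. The ChIP to input ratio after scaling to the 2 totals was 14.7 near and 13.0 far, which is 1.13 times as high near a wide region (1.11 to 1.16). The authors' deposited fold over input had medians of 14.1 and 12.7, and 57 of the 92 near regions lay above the far median. The caller's deposited clonality ratio had a median of 0.88 in both groups.

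**Figure D1:**
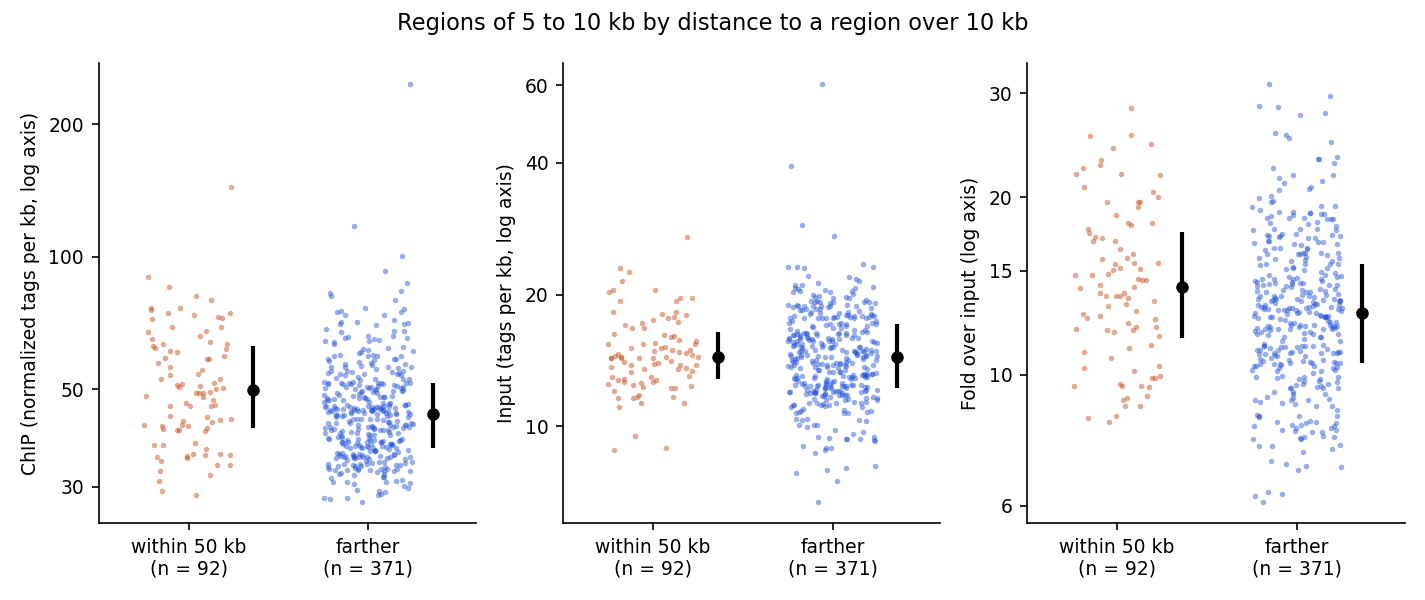
Each point is 1 region of 5 to 10 kb, within 50 kb of a region over 10 kb (n = 92) or farther (n = 371), by ChIP density in normalized tags per kb, input tags per kb and fold over input, on log axes; black dots and bars beside the points are medians and quartiles. The ChIP medians are 49.7 and 43.9 with wide overlap, and the input medians are 14.40 and 14.39.

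Near regions were also wider, with a median of 7186 bp against 6352 bp, and wider regions had more ChIP per kb. Over all 463 regions the correlation of width and ChIP density was 0.32 by rank (Spearman) and 0.26 by Pearson, a description only. Width and density come from the same caller, which stitches windows that pass a tag minimum. Whether this ties width to density was not tested. Because near regions were wider, bins of 1 kb in width were compared. Between 5 and 6 kb the median ChIP density was 44.0 in 20 near and 40.7 in 145 far regions. Between 6 and 7 kb the order turned, with 42.5 in 24 near and 43.7 in 101 far regions, and a near to far ratio of 0.969 in summed tags. Above 7 kb near regions were higher in each bin. The medians were 51.4 against 44.9 at 7 to 8 kb, 58.8 against 49.0 at 8 to 9 kb, and 60.6 against 48.3 at 9 to 10 kb, where the near bins held 19, 13 and 16 regions. In summed tags the near density was 49.3 at 5 to 6 kb and 58.0 at 9 to 10 kb, and the far density 42.2 and 52.3. Both groups were thus denser in the wider bin. With far regions weighted to the widths of near ones, the near to far ratio of summed ChIP density was 1.11 in place of 1.15, and that of input was 0.999.

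By the median, the higher ChIP density was found up to 25 kb from the wide region, and not at 25 to 50 kb. The 42 regions with a gap of 3 kb or less had a median of 51.2 normalized tags per kb. Those at 3 to 10 kb had 49.3 (n = 19), those at 10 to 25 kb had 50.5 (n = 14), and those at 25 to 50 kb had 41.4 (n = 17). Beyond 50 kb the medians ran from 39.8 to 45.0 in 5 distance classes, with no steady course. Regions at 25 to 50 kb thus had a median inside the range of the far classes and below the far median of 43.9, and their median fold of 11.1 was below the 12.7 of far regions. In summed tags, regions with a gap of 3 kb or less had 1.21 times the far ChIP density and regions at 25 to 50 kb had 1.03 times. Relative to input the second of these was 0.996 times the far value. Median input density ran from 13.9 to 15.9 tags per kb over all 9 distance classes. The highest of these values belonged to a far class, at 100 to 500 kb. Median widths ran from 7056 to 7363 bp in the classes up to 50 kb and from 6209 to 6737 bp in the 5 beyond. The comparison by distance was not weighted by width.

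**Figure D2:**
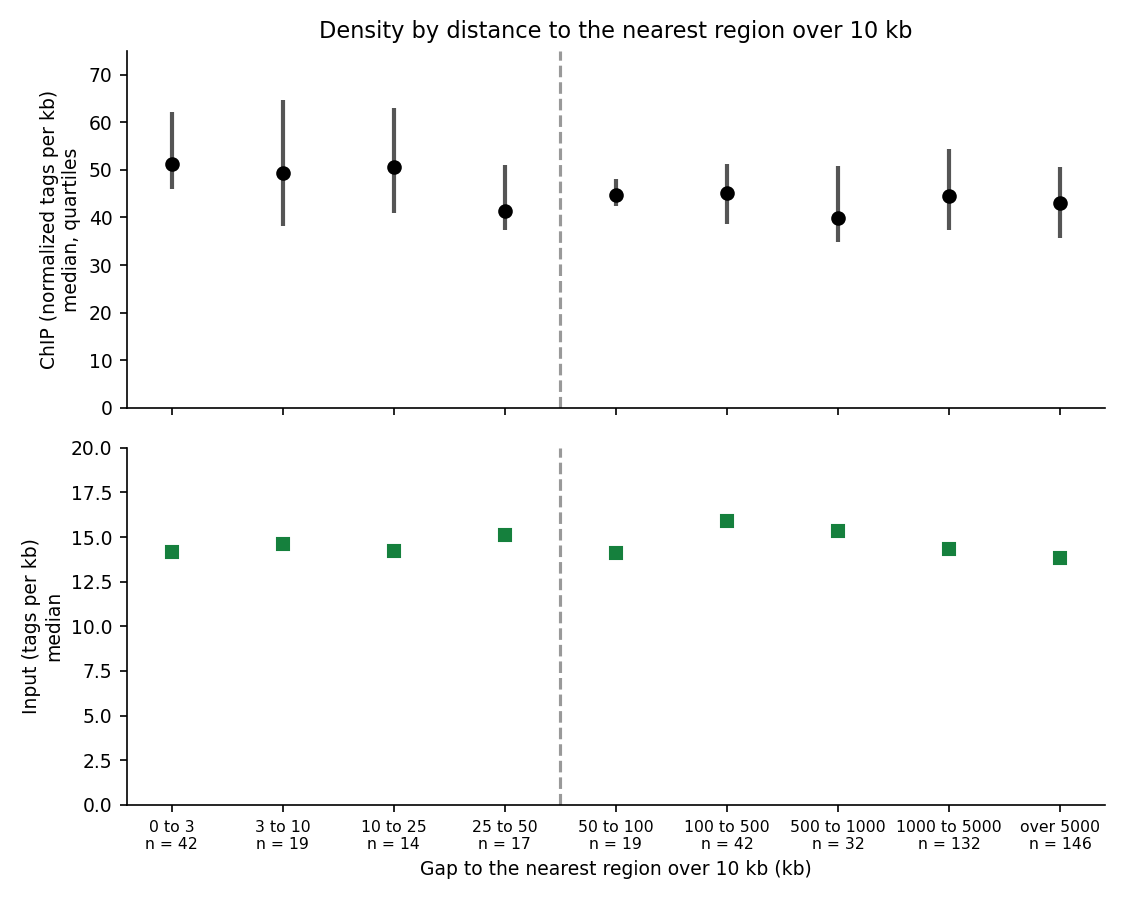
Median ChIP density with quartiles (upper panel, normalized tags per kb) and median input density (lower panel, tags per kb) of regions of 5 to 10 kb by the gap to the nearest region over 10 kb; the dashed line marks 50 kb. The ChIP median is 51.2 at 3 kb or less and 41.4 at 25 to 50 kb, while input stays between 13.9 and 15.9.

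The comparison was repeated within chromosomes. Chromosome 1 held the most regions of 5 to 10 kb, 67, and chromosome 11 the fewest, 7. Their frequency was 0.173 ± 0.058 per Mb of chromosome span (SD over 20 autosomes). On the 16 autosomes with at least 3 regions in each group, the summed ChIP density was higher near wide regions on 12 and lower on 4. The near to far ratio averaged 1.13 ± 0.17 (SD, n = 16 autosomes) and ran from 0.792 to 1.43. Its mean lies less than 1 SD above 1, where the SD is the spread between single autosomes and not the error of their mean. Input gave 1.02 ± 0.089, higher on 9 and lower on 7, and the ChIP to input ratio gave 1.10 ± 0.16, higher on 12.

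Chromosome 15 had the highest of these ratios, with 64.7 normalized tags per kb in 3 near and 45.3 in 14 far regions. Chromosomes 9 and 2 followed, with 65.5 against 49.2 and 69.1 against 52.6. The 9 near regions of chromosome 2 include the near region with the highest ChIP density, 143.9 normalized tags per kb, described further below. The order turned on chromosomes 13, 19, 10 and 12. On chromosome 13 the far density of 62.0 against 49.1 near includes the region with the most ChIP signal of all, described next. On chromosome 12 both groups were low and close together, 40.1 near and 40.2 far. Chromosome 7 had no near region among its 15, and its wide regions include those of the locus left out. Leaving out each autosome in turn moved the ratio of summed ChIP density only between 1.12 and 1.16.

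**Figure D3:**
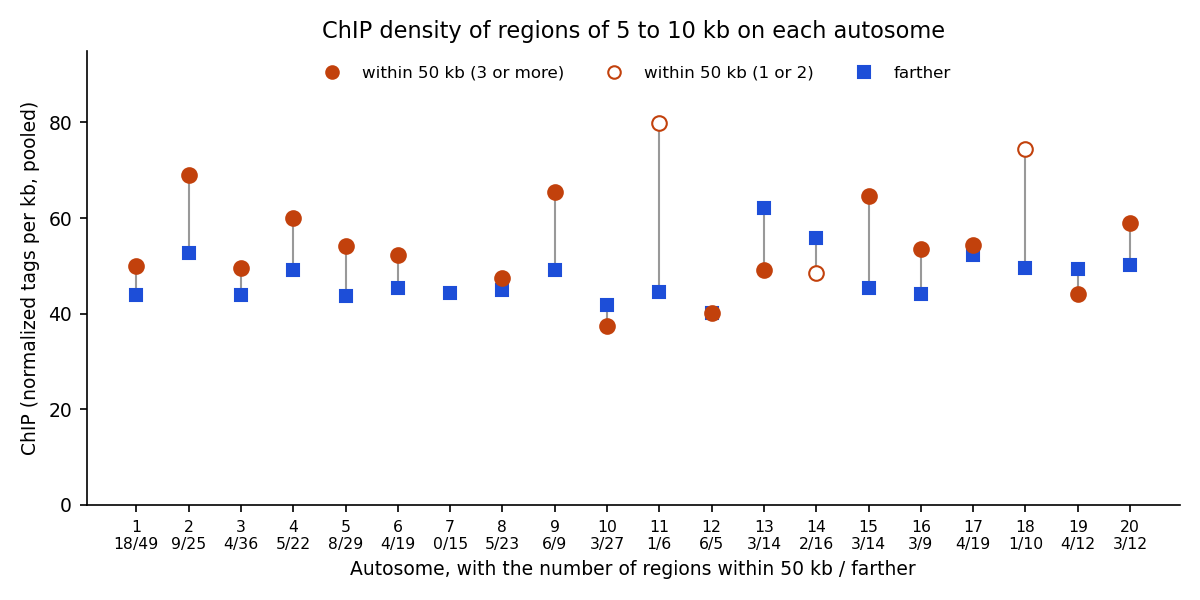
Summed ChIP density (normalized tags per kb) of regions of 5 to 10 kb on each autosome, for regions within 50 kb of a region over 10 kb (circles; open where only 1 or 2 regions) and for those farther away (squares), with the numbers of regions under each chromosome. Near regions are higher on 12 of the 16 autosomes with at least 3 regions in each group.

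The far region with the highest ChIP density lay on chromosome 13 from 94073543 to 94081182. It held 246.9 normalized tags per kb and also the most input of all, 60.5 tags per kb, so its fold over input was 16.8 (15.3 to 18.5), no longer the highest. Chromosome 2 held the next far region, from 71172516 to 71178414, with 117.5 normalized tags and 39.3 input tags per kb at a fold of 12.3 (10.8 to 14.1). The third, on chromosome 4 from 145587535 to 145593832, had 100.4 normalized tags and 19.4 input tags per kb, at a fold of 21.4 (17.8 to 25.8). It began only 288 bp from another region of 5 to 10 kb with 54.0 normalized tags per kb. High ChIP density thus went with high input in these leading far regions, but not in all dense far regions. The region from 43705738 to 43715727 on chromosome 2 held 86.9 normalized tags and 13.9 input tags per kb. That from 106924048 to 106932084 on chromosome 14 held 83.5 and 11.6. These input values lay below the far median of 14.39. A far region on chromosome 4, from 143572564 to 143579201, lay above it, with 82.7 and 23.1. Over all 463 the Pearson correlation of ChIP and input density was 0.51 against a Spearman value of 0.20. Input exceeded 25 tags per kb in 5 regions, 1 near and 4 far, and without them the near to far ratio of ChIP density was 1.14.

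Among near regions the highest ChIP density belonged to chromosome 2 from 71021388 to 71030236. It held 143.9 normalized tags per kb at a fold of 21.9 (19.3 to 25.1), 1307 bp from a wide region with 101.1. That wide region, from 71031543 to 71045563, held 47.4 input tags per kb at a fold of 8.79, while the region beside it held 27.01 input tags per kb, the most of all near regions. The second ran from 5176313 to 5185772 on chromosome 20, with 90.1 normalized tags per kb and a fold of 18.1 (15.67 to 21.02). The third ran from 272415997 to 272425025 on chromosome 1, with 85.4 normalized tags per kb and a fold of 28.4 (23.5 to 34.5). It lay 46.9 kb from its wide neighbour and had 2.02 times the density of that neighbour, more than any other near region.

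At the low end, the values of near and far regions lay close together. The near regions with the least ChIP signal lay on chromosome 1 from 272010598 to 272015840, with 28.8 normalized tags per kb, and on chromosome 12 from 43889776 to 43895785 and from 44369259 to 44375499, with 29.4 and 30.9. The first of them lay only 457 bp from a wide region. Chromosome 12 also held the far regions with the least, between 51108181 and 51114098 at 27.7 and between 12357493 and 12362820 at 28.1, followed by chromosome 18 between 64187107 and 64192123 at 28.3. The folds of these 6 regions ran from 7.58 to 9.96.

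The 3 highest folds over input belonged to far regions. Chromosome 7 carried the first, between 12253066 and 12261108, whose fold was 31.1 (23.8 to 41.6) at 50.8 normalized tags per kb and 6.71 input tags per kb, the least input of all 463. The second, between 106924048 and 106932084 on chromosome 14, reached 29.7 (24.2 to 36.9), and the third, between 157275744 and 157281199 on chromosome 5, reached 28.6 (22.1 to 37.7). The intervals of these 3 overlap each other and that of the leading near region on chromosome 1, so this depth does not order them. Those on chromosomes 14 and 5 each had another region of 5 to 10 kb beside them, at gaps of 322 and 364 bp.

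Near regions had on the whole less ChIP signal than the wide region beside them, and so had far regions against the nearest wide region, however distant. The density of the near region over that of its nearest wide region had a median of 0.817 (quartiles 0.628 and 1.04), and was below 1 for 66 of 92 and above 1 for 26. For input the median ratio was 1.00 (quartiles 0.857 and 1.13). With a gap of 3 kb or less the ChIP ratio was 0.862 at the median (n = 42), and with a gap over 3 and up to 50 kb it was 0.721 (n = 50). Far regions up to 1000 kb away gave 0.733 (n = 93), and all far regions gave 0.725, with 297 of 371 below 1. The rank correlation of the ChIP densities was 0.48 over the 42 close pairs and 0.02 over the other 50. Chromatin fragments were 0.5 to 2 kb long in the sample labels, and the lower quartile of the near gaps was 0.457 kb. Whether close pairs shared fragments was not tested. The ratios and correlations are descriptions over pairs within 1 list, in which some wide regions occur more than once. The wide region with the most regions of 5 to 10 kb within 50 kb ran from 271928168 to 271953299 on chromosome 1, with 72.2 normalized tags per kb and a fold of 24.3. The 4 regions around it, between 271870549 and 271924449, all lay on the side of lower positions, at 37.4, 40.4, 45.7 and 41.5 normalized tags per kb from the farthest to the closest. All 4 were below the wide region, at 0.518 to 0.633 times its density.

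**Figure D4:**
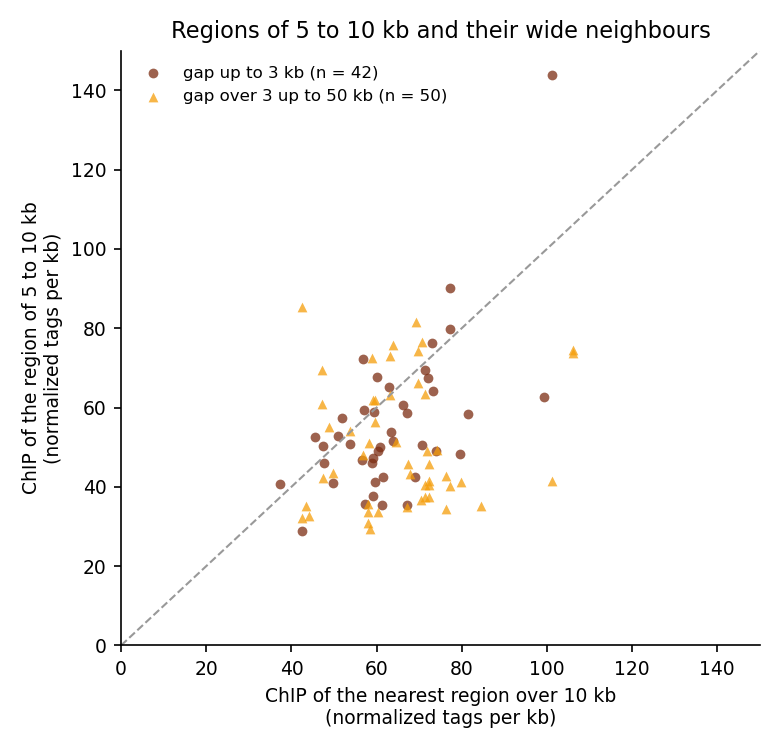
ChIP density of each of the 92 regions of 5 to 10 kb within 50 kb of a region over 10 kb (y axis) against that of the wide region (x axis), both in normalized tags per kb, by gap; the dashed line marks equal density. Of the 92 points, 66 lie below the line.

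Smaller regions surrounded nearly all regions of 5 to 10 kb. In the 50 kb on either side lay a median of 24.5 regions up to 5 kb wide around near regions (quartiles 18 and 34) and 20 around far regions (quartiles 12 and 29). They covered 17.1% of the flanks of near regions at the median, outside the wide regions, and 8.36% of those of far regions. The count of regions of 150 bp or less was 8 at the median in both groups. These counts were not adjusted for the part of the flank taken up by wide regions, while the covered share was. Counts and covered share therefore cannot be set side by side. Counted once each, the flanking regions up to 5 kb numbered 1930 near and 6306 far, with 34.4 and 32.2 normalized tags per kb in sum and ChIP to input ratios of 9.40 and 9.02. Both lie below the 54.1 and 47.2 of the regions of 5 to 10 kb themselves.

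Some regions of 5 to 10 kb also lay beside each other. Another region of this class lay within 50 kb of 32 of 92 near and 122 of 371 far regions, 34.8% and 32.9%. The same share over all listed regions was not computed, so these values do not show whether regions of 5 to 10 kb cluster. When regions 3 kb or less apart were joined into stretches, 77 of the 92 near regions fell in a stretch with a wide region. Only 10 regions, all far, formed a stretch alone. Far regions with another region of 5 to 10 kb within 3 kb (n = 60) had a median of 50.1 normalized tags per kb, close to the 49.7 of near regions, and those with none within 50 kb (n = 249) had 42.2. Their input medians were 15.7 and 14.1 tags per kb and their median folds 12.5 and 12.8. The summed ChIP to input ratio was 14.1 in the first set and 12.7 in the second, so the order relative to input turned with the summary used. Of the far regions, 240 lay in stretches whose called regions covered over 10 kb in all, with a median of 45.7 normalized tags per kb, against 39.98 in the other 131. The class of far regions therefore holds many regions that a joining distance of 3 kb would place in a wide stretch. Within 85 pairs of neighbouring regions of 5 to 10 kb up to 50 kb apart, the denser had 1.20 times the ChIP density of the other at the median (quartiles 1.11 and 1.44), and over 1.5 times in 16 pairs.

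Some regions lay far from wide regions or from any other region. The region farthest from any wide region, 56.6 Mb away, lay on chromosome 18 from 2439108 to 2447599. It held 54.3 normalized tags per kb at a fold of 10.5 (9.05 to 12.3), with another listed region 4051 bp away. The region from 21201558 to 21211267 on chromosome 16, named after its values were seen, was the only one of the 463 with no other region of any width within 50 kb. It was 9709 bp wide and held 43.4 normalized tags per kb at a fold of 16.7. The first density lies above the far upper quartile of 51.6, and the second is close to the far median of 43.9.

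In summed ChIP tags, density was also higher near wide regions in the neighbouring width classes, by ratios below the unweighted 1.15 of the regions of 5 to 10 kb. That ratio was 1.11 with widths weighted and 1.07 for regions up to 7.5 kb. The ratios of the other classes were not weighted by width. For regions of over 2 and up to 5 kb the near to far ratio of summed ChIP density was 1.09 (1.08 to 1.09), with 219 near and 1634 far, but input also differed, by 1.06 (1.04 to 1.08). Relative to input the ratio was 1.03 (1.01 to 1.05), below the interval of the regions of 5 to 10 kb. By the median fold the order turned, with 9.64 near and 9.87 far. For wide regions beside another wide region the ChIP ratio was 1.04 (1.03 to 1.04) and the ChIP to input ratio 1.05 (1.03 to 1.07). These intervals hold counting error only and leave out the spread between regions, and the differences between classes were not tested.

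Regions just inside and just outside the width bounds had overlapping densities. Just inside the lower bound, regions of 5002 and 5012 bp held 44.2 and 32.6 normalized tags per kb, and just outside it regions of 4999 and 4984 bp held 88.1 and 39.5. Just inside the upper bound, regions of 9989 and 9985 bp held 86.9 and 38.4, and just outside it regions of 10062 and 10077 bp held 51.2 and 99.3. Single regions of 5 to 10 kb held 664 to 8832 ChIP tags (median 1376) and 42 to 462 input tags (median 95). No region rested on an input of 0.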

How the data were processed

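ChIP and input tags were combined before deposit, and 1 list of regions was used. HOMER findPeaks made the list in its region mode, per the file headers (peak size 150 bp, minimum distance 370 bp, at least 14 tags per window, fold of 4 over input). The submitters' processing notes also name CASAVA 1.8.2 and Bowtie. The deposited ChIP signal is the tag number scaled to 10000000, and the input signal is the tag number under each region, with 0.5 for 0. The deposited fold and clonality ratio were used as given, while the deposited p-value and score were not used. ChIP tags were recovered from the header's total of 46826704 tags, to within 0.234 of a whole tag in every region.

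Gaps were measured between edges, to any autosomal region over 10 kb. Densities are tags over region width, summed or as medians. Intervals are exact binomial (Clopper-Pearson), and for ChIP to input ratios normal on the log scale. They take tags, or regions for shares, as independent counts and so cover counting error only. Tags carry no molecular identifiers, so copies of 1 molecule cannot be told apart. No test was run, because the list has no column per sample. Regions were named by rank (the 3 highest and 3 lowest ChIP densities in each group, the 3 highest folds with 20 or more input tags, the most input, the farthest, the wide region with the most neighbours, the width bounds). The members and rules were chosen with earlier results of these data known. Python 3.11.15, numpy 2.4.6, pandas 2.3.3 and scipy 1.17.1 were used, and the gap and ratio functions were tested on simulated data. The reference gene and promoter tables are of GRCr8 and were not combined with the list.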

Additional observations from a re-analysis of the deposited data

Results flagged for a closer look

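Regions of 5 to 10 kb outside the comparison carried signal above input as well. The 9 on chromosome X had a median fold of 14.9 over input, with 42.2 normalized tags and 11.8 input tags per kb at the median. The 16 inside the 3 loci left out had a median fold of 10.985, with 41.2 normalized tags and 15.2 input tags per kb. Both sets were looked at because no comparison above used them, and a fold of at least 4 was a condition of being listed.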

How the results depend on the processing

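Single width bins and single autosomes, some of which gave a ratio below 1, were not among the alternatives. Under all 18 of them the near to far ratio of ChIP density stayed above 1, from 1.03 to 1.21. It was 1.17 with near set at 25 kb, 1.12 at 100 kb, 1.09 for neighbours over 15 kb wide, 1.07 for regions up to 7.5 kb and 1.17 above 7.5 kb. It was 1.11 with widths weighted, 1.13 for medians, 1.13 for the mean over autosomes, 1.17 with 1 region per wide neighbour, 1.12 at or above the median fold of the list and 1.16 without chromosome 1. Among alternatives chosen after seeing the data it was 1.21 for gaps up to 3 kb, 1.03 for 25 to 50 kb and 1.11 without chromosome 1 with widths weighted. The ChIP to input ratio was 1.17 at 25 kb, 1.09 up to 7.5 kb, 1.11 for medians, 1.10 over autosomes, 1.09 at or above the median fold and 1.21 for gaps up to 3 kb. At 25 to 50 kb (n = 17) it was 0.996, on the other side of 1 but close to it, and no interval was computed for this value. The input ratio was 0.975 for neighbours over 15 kb, 0.982 up to 7.5 kb, 1.03 at or above the median fold and 1.04 at 25 to 50 kb. The share of near regions was 16.2% at 25 kb, 24.0% at 100 kb, 8.42% for neighbours over 15 kb and 27.5% for regions over 7.5 kb. The autosomes with more ChIP near than far numbered 4 of 6 for neighbours over 15 kb, 5 of 9 up to 7.5 kb and 4 of 4 above it, where fewer had 3 regions in each group. The cause of the other changes was not tested. All 463 regions had at least 20 input tags, so that filter changed nothing. No paired analysis was possible because the list has no column per sample, and no library could be left out for the same reason.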
